A study of Mus musculus with 24 samples.

Results

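Leukocytes that had entered the pancreas of diabetes-prone mice were compared with leukocytes of the spleen from mice of the same genetic background. Of the 24 arrays of the series, 5 enter this comparison: 3 arrays of total pancreatic infiltrate and 2 arrays of total splenic leukocytes, chosen by their labels. The infiltrates came from C57Bl/6-H2g7/g7 mice, called B6g7, that carried the BDC2.5 transgene, a T cell receptor directed against islet antigen. The labels describe their islet inflammation (insulitis) as aggressive. Infiltrate arrays 1, 2 and 3 came from mice 25, 28 and 24 days old. The spleens came from C57Bl/6-H2g7/g7 mice whose age the labels do not give, and whose labels name no transgene. The labels name no treatment, and in both tissues viable leukocytes were sorted as CD45+ Hoechst- cells. RNA was amplified in 2 rounds for the infiltrates and in 1 round for the spleens. The processing method RMA is named for the infiltrate arrays only, and the serial codes of the labels do not overlap between the groups. Tissue, transgene, amplification, processing and serial code therefore cannot be told apart between these 2 groups. Whether the arrays of 1 group hold different mice is not stated in the labels, so the p-values cover the array-to-array spread, which may be technical. The other arrays used below had 2 rounds, except the NOD spleens with 1. The 3 NOD infiltrates came from NOD mice with BDC2.5, 25 days old, whose insulitis is labelled benign, and for the 2 NOD spleens neither age nor transgene is given. The 2 arrays of B6g7 splenic natural killer (NK) cells, sorted by Asialo GM1, came from mice labelled as without a transgene, 6 and 3 weeks old. The 2 arrays of B6g7 lymph node T cells, sorted as CD4+ and high for the BDC2.5 clonotype, came from pancreatic lymph nodes of transgenic mice 25 and 22 days old. T cells sorted the same way from pancreas (B6g7, 25 and 22 days, and NOD, 24, 24 and 25 days) and from NOD lymph nodes (24, 22 and 25 days), and 2 arrays of NOD NK cells of no stated age, 1 of them described as from BDC2.5 mice, enter the shared spread and the levels by amplification.

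In this model, CD4 T cells that recognise an islet antigen enter the pancreas and recruit other leukocytes there. Interferon-gamma from T and NK cells acts on myeloid cells, which release the chemokines that draw in further effector cells. The spleen, by contrast, is rich in resting B cells and in naive T cells that recirculate through lymphoid organs.

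All levels are log2 of the deposited array intensity, and a difference is the mean infiltrate level minus the mean spleen level. The adjusted p of each gene comes from 1 limma fit over 24 arrays and 12422 probe sets, and a gene passed at an adjusted p under 0.05. The array medians ran from 35.11 to 39.14 in linear intensity. The RNA of the groups differed in 3' bias: the Gapdh 3' probe set exceeded the 5' probe set by 2.56, 3.16 and 3.15 in the infiltrates, against 0.37 and 0.30 in the spleens. Liver transcripts were present in infiltrate arrays 1 and 2. Albumin (Alb) had 10.58, 10.46 and 4.19 in the infiltrates, against 4.12 and 4.28 in the spleens, and the mean of 16 liver transcripts was 7.64, 7.23 and 4.49 in the infiltrates, against 4.45 and 4.55 in the spleens. No liver transcript passed in limma, and 0 had an unadjusted p under 0.05, with array 3 at the spleen level. Ptprc, which encodes CD45, had 8.60, 8.17 and 9.26 in the infiltrates, against 9.14 and 9.02 in the spleens at its brightest probe set. The level taken for an absent transcript was 4.36, the highest of Fabp1 in the 18 arrays without liver transcripts, chosen after seeing the data. It came from 1 array of NOD pancreatic T cells, with Alb at 4.9. Probe sets can differ in this level: the pancreatic transcript Clps had 6.62 and 7.03 in the spleens. A fold against a mean at or below 4.36 is a lower bound under this assumption, with the measured difference beside it.

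Of 8251 genes, 284 (3.44%) were higher in B6g7 infiltrate and 337 (4.08%) were lower, with a median difference of 0.001 over all genes. The counts of list members below are to be read beside these shares. The 5 arrays did not overlap between tissues in any of these genes. A gene is counted by its brightest probe set: of the 98 higher genes with over 1 probe set, 34 had another of opposite sign and 3 another that passed in the opposite direction, and of 69 such lower genes 20 had another of opposite sign and 0 another that passed as higher. The rises had a median of 1.28, and 210 of them reached 2-fold. The falls had a median of -1.02, and 174 reached 2-fold. In these bulk samples, fewer cells of a type and less RNA per cell cannot be told apart. With infiltrate array 3 alone against the spleens, without the arrays that held liver transcripts, all 284 and 337 genes kept their sign. The lack of overlap fixed that sign in advance, so it is no check on the liver transcripts. Over probe sets, 942 passed, against 324 without spleen array 1, 396 without spleen array 2 and 625 without infiltrate array 3, and 370 with neighbouring serial codes of the labels as a random block. Array weights gave 4283 and a liver covariate 1448. The weights leaned on infiltrate array 2, at 6.08, against 0.59 and 0.60 for infiltrate arrays 1 and 3. Of the 100 genes that passed and are named by the rule or in the text, 42 passed whichever of the 5 arrays was left out.

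**Figure D1:**
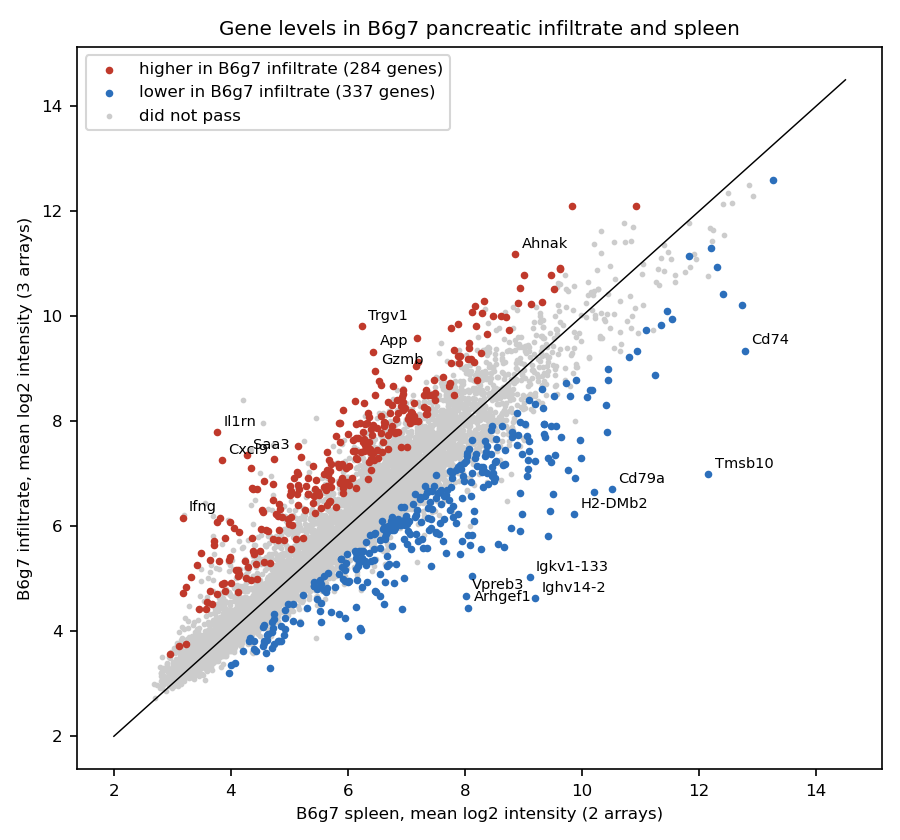
Mean log2 intensity of 8251 genes in 3 B6g7 infiltrate arrays (vertical axis) and in 2 B6g7 spleen arrays (horizontal axis), with the line of equal levels. The 284 higher genes lie above the line and the 337 lower genes below it, with Il1rn, at 7.79 in infiltrate and 3.77 in spleen, and Tmsb10, at 6.99 in infiltrate and 12.16 in spleen, far from it.

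Il1rn, the secreted antagonist of the interleukin-1 receptor, rose strongly. It had 8.57, 7.62 and 7.19 in the infiltrates, against 3.74 and 3.79 in the spleens. Il1rn was thus at the level of an absent transcript in the spleens and at least 10.8-fold higher in infiltrate, a difference of 4.03 (SE 0.38, adjusted p = 1.81e-06). Saa3, an acute phase protein made by macrophages, had 8.91, 6.94 and 6.22 in the infiltrates, against 4.24 and 4.31 in the spleens (at least 7.97-fold higher, difference 3.08, SE 0.62, adjusted p = 0.0042, and 0.104 without the arrays with liver transcripts). Of the 16 measured genes of the interleukin-1 axis and acute phase, 2 rose (Il1rn and Saa3) and 1 fell. The latter was Nfkbia, the inhibitor of NF-kappaB, with a difference of -1.67 (adjusted p = 0.0111). Another Nfkbia probe set differed by -0.40 (adjusted p = 0.405). Without spleen array 1 the adjusted p was 0.0587 for Saa3 and 0.101 for Nfkbia.

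Among 20 inflammatory chemokines, 5 rose and none fell, with a list median of 0.35. Cxcl9, an interferon-gamma-induced ligand of the receptor Cxcr3, had 7.72, 7.41 and 6.66 in the infiltrates, against 3.90 and 3.79 in the spleens. The arrays of the tissues lay far apart, a rise of at least 7.46-fold (difference 3.42, SE 0.28, adjusted p = 2.39e-07). Ccl3, which attracts monocytes and T cells, had 6.74, 6.57 and 6.53 in infiltrate, against 5.24 and 5.02 in spleen (difference 1.49, adjusted p = 0.00272). Ccl2, the main monocyte attractant, was uneven, at 4.26, 4.08 and 5.86 in infiltrate, against 3.17 and 3.20 in spleen, and only array 3 stood well above the absent level. Cxcl2 and Cxcl10 also passed, both with a difference of 0.97, but from the absent level in the spleens, so that the rises were at least 1.15-fold for Cxcl2 and at least 1.05-fold for Cxcl10. Of the 5, Cxcl9 alone passed whichever array was left out, while the highest adjusted p of the others ran from 0.0527 for Ccl3 without spleen array 2 to 0.338 for Cxcl10 without the same array. Without the arrays with liver transcripts, 2 of the 20 chemokines passed. Of 17 chemokine receptors, Ccr2, the receptor for Ccl2, rose by 1.74 (adjusted p = 0.00046), Ccrl2 rose by 0.97 (adjusted p = 0.0052, and 0.0688 without spleen array 2), and Cxcr4, which holds cells in marrow and follicles, fell by 1.71 to the absent level in infiltrate (at least 2.96-fold lower, adjusted p = 0.014, and 0.297 without spleen array 2).

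Ifng, the gene for interferon-gamma, was measured at 5.68, 6.33 and 6.48 in the infiltrates, against 3.27 and 3.08 in the spleens. All 3 infiltrate arrays lay above the absent level and both spleen arrays below it, so the rise was at least 3.49-fold (difference 2.99, SE 0.45, adjusted p = 0.000371). Of 27 cytokines and T helper regulators, Ifng and Il10 rose and Tgfb1, Ltb and Il16 fell, against 3.44% higher and 4.08% lower over all genes. Tgfb1, a regulatory cytokine, had 6.13, 5.61 and 5.17 in infiltrate, against 8.30 and 7.88 in spleen (difference -2.45, adjusted p = 4.19e-06). It lay between 5.17 and 6.32 in all arrays amplified in 2 rounds and between 7.86 and 8.30 in the spleens of both backgrounds. Against B6g7 NK and lymph node T cells, which had 2 rounds, Tgfb1 differed by 0.16 and Ltb by 0.21 (limma adjusted p = 0.757 and 0.779). Ltb reached an adjusted p of 0.12 without spleen array 1 and Il10 of 0.256 without spleen array 2. Tnf, the tumour necrosis factor gene, differed by 0.12 (adjusted p = 0.87).

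Among 23 interferon-gamma response genes, 2 rose and 1 fell, and the list median was 0.38. Over all genes, 3.44% rose and 4.08% fell. A probe set of the list gene H2-K1 that is not its brightest differed by -1.25 (adjusted p = 0.0178). Irgm2, a GTPase that guards against vacuolar pathogens, had 8.86, 9.17 and 9.33 in infiltrate, against 7.26 and 7.15 in spleen (difference 1.92, SE 0.50, adjusted p = 0.0243). Gbp2, a guanylate-binding protein, had 8.36, 7.71 and 7.46 in infiltrate, against 6.57 and 6.23 in spleen (difference 1.44, SE 0.43, adjusted p = 0.0474). Neither passed without the arrays with liver transcripts (adjusted p = 0.115 for Irgm2 and 0.392 for Gbp2) or without spleen array 2 (0.173 for Irgm2 and 0.324 for Gbp2), or with the serial codes as a random block (0.157 for Irgm2 and 0.287 for Gbp2). Irf1, the transcription factor that interferon-gamma induces first, had a difference of 1.13 (adjusted p = 0.084). Ciita, the master activator of MHC class II genes, fell by 0.87 (adjusted p = 0.00739, 0.0912 without spleen array 1, and 0.0578 with that block). The sequences upstream of Irgm2 and Gbp2 are shown because both rose and both hold the core of the interferon-stimulated response element, the letters GAAA, any 2 bases and GAAA again, on either strand, set in capitals. They are the 250 bases before the gene's start, from RefSeq on build GRCm38.p6, both on the plus strand. Irgm2 is at chr11:58214727-58214976, with the match starting 64 bases before the start, and Gbp2 is at chr3:142620413-142620662, with the match 59 bases before it on the opposite strand.
Irgm2: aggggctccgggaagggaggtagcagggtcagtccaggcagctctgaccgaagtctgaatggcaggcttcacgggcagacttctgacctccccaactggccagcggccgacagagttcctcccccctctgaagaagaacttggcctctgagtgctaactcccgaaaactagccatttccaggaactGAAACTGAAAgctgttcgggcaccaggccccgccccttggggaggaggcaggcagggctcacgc
Gbp2: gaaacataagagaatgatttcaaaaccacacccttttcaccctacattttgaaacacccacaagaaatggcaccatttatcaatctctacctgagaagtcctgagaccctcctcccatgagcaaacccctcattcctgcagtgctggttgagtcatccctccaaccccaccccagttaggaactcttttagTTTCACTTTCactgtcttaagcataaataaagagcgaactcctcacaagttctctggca
This pattern occurred in 8 of the 18 genes of the list with a promoter entry and in 2.98% of all 32851 promoter windows of that length. A gene counted if any of its windows held the pattern, while the share is over single windows. The measures are therefore unlike. The holders include Gbp3, Gbp7, Igtp, Irgm1, B2m and Socs1, none of which passed, and a match is no evidence of a site.

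Genes of NK cells and of killing rose in part. Of 15 NK receptors and lineage genes, 5 rose (Cd244a, Klrg1, Klrb1b, Klrk1 and Klrd1) and the list median was 0.51. Klrg1, an inhibitory receptor of effector NK and T cells, had 7.24, 7.70 and 7.65 in infiltrate, against 5.31 and 4.99 in spleen (difference 2.38, SE 0.36, adjusted p = 0.000406). Cd244a, a receptor of the SLAM family, had 5.80, 5.75 and 6.33 in infiltrate, against 4.16 and 3.94 in spleen (adjusted p = 0.000227). Without spleen array 2, the adjusted p of Klrb1b, Klrk1 and Klrd1 was 0.225, 0.229 and 0.256. Ncr1, a defining NK receptor, differed by 0.13 (adjusted p = 0.883). Among 14 cytotoxic genes, Gzmb and Fasl rose. Gzmb, the protease granzyme B, had 9.07, 8.09 and 9.72 in infiltrate, against 6.42 and 6.51 in spleen, with array 3 the highest (difference 2.5, SE 0.42, adjusted p = 0.000992). Fasl, the death ligand, rose by 1.63 (adjusted p = 0.00506, and 0.0961 without spleen array 2). The perforin gene Prf1 (0.32, adjusted p = 0.578) and granzyme A gene Gzma (0.67, adjusted p = 0.453) did not pass.

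Trgv1, which encodes a variable region of the gamma chain of gamma-delta T cell receptors, had 9.98, 9.73 and 9.69 in infiltrate, against 6.19 and 6.28 in spleen. The infiltrate arrays were tightly grouped, an 11.9-fold rise (difference 3.57, SE 0.31, adjusted p = 5.88e-07). Itgae, the integrin that binds E-cadherin on epithelium, had 6.02, 5.48 and 6.14 in infiltrate, against 4.11 and 4.15 in spleen (at least 2.87-fold higher, difference 1.75, SE 0.27, adjusted p = 0.000397). Itgb1 rose by 2.02 and Itgav by 0.79, while Itgal fell by 0.54, among 15 integrins. A second probe set of Itgav differed by -0.44. Itgav and Itgal did not pass without spleen array 1 (adjusted p = 0.216 and 0.212).

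Some genes of myeloid cells also rose. Of 21 macrophage and monocyte markers, 3 passed, all higher: the scavenger receptor Msr1 (at least 2.67-fold, difference 1.88, adjusted p = 0.002), the Fc receptor Fcgr1 (1.25, adjusted p = 0.0179) and Adgre1, which encodes F4/80 (1.30, adjusted p = 0.0347). Of these Msr1 alone passed in every fit that left out 1 of the 5 arrays; without spleen array 1 Fcgr1 had an adjusted p of 0.212, and without spleen array 2 Adgre1 had 0.219. With the serial codes as a random block none of the 3 passed (adjusted p = 0.058 for Msr1, 0.164 for Fcgr1 and 0.237 for Adgre1). Csf1r (1.18, adjusted p = 0.13) and Cd68 (1.01, adjusted p = 0.194) did not pass. Another Fcgr1 probe set differed by 1.42 (adjusted p = 0.0465). Other probe sets of Msr1 and Adgre1, below the absent level in both tissues, differed by 0.40 and 0.03 (adjusted p = 0.107 and 0.957). Pla2g7, which degrades platelet-activating factor, had 7.56, 6.18 and 6.46 in infiltrate, against 4.52 and 4.19 in spleen, and Clec4d, a C-type lectin of myeloid cells, had 6.50, 6.04 and 5.91 in infiltrate, against 3.77 and 3.84 in spleen. For Clec4d the adjusted p was 0.0889 without spleen array 1, 0.0715 without spleen array 2 and 0.17 with that block. Among 21 phagocyte genes of lysosomes, lipids and complement, Lpl, Npc2 and Hexa rose. Other probe sets of Lpl and Hexa, below the absent level in both tissues, differed by 0.35 and 0.08 (adjusted p = 0.361 and 0.877). Among 17 genes of matrix remodelling and effector migration, Anxa2, S100a4, S100a6, Anxa1 and Emp1 rose, by 1.06 to 1.97, with Emp1 and Lpl at the absent level in spleen (at least 1.46-fold and 2.44-fold higher in infiltrate). Each of these 8 genes missed the threshold in at least 1 fit that left out a spleen array, with highest adjusted p from 0.0969 for Lpl to 0.338 for Npc2. None of the 8 passed with the serial codes as a random block, with adjusted p from 0.118 for Lpl to 0.34 for Emp1. Without the arrays with liver transcripts, 1 of those 17 and 1 of the 21 phagocyte genes passed.

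The other large rises were App, the amyloid precursor protein, Pkp4, Sdcbp, Nbr1, Lilr4b and Ahnak. App had 9.47, 9.04 and 9.47 in infiltrate, against 6.43 and 6.43 in spleen, and differed by 2.90 (SE 0.22, adjusted p = 1.34e-07). Nbr1 had a difference of 2.41 at its brightest probe set and -0.42 at another. Nbr1 did not pass without either spleen array (adjusted p = 0.0648 and 0.0804), Sdcbp without spleen array 2 (0.111) and Lilr4b without spleen array 1 (0.0909). Ahnak, a very large scaffold protein, had 10.62, 10.87 and 12.08 in infiltrate, against 9.0 and 8.72 in spleen (adjusted p = 0.0197, and 0.172 without spleen array 2). Of 38 cell cycle genes 3 rose, Cdk1, Ccnd3 and Kif11, against 3.44% of all genes. None of the 3 passed with the serial codes as a random block (adjusted p = 0.139 for Cdk1, 0.146 for Ccnd3 and 0.214 for Kif11).

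**Figure D2:**
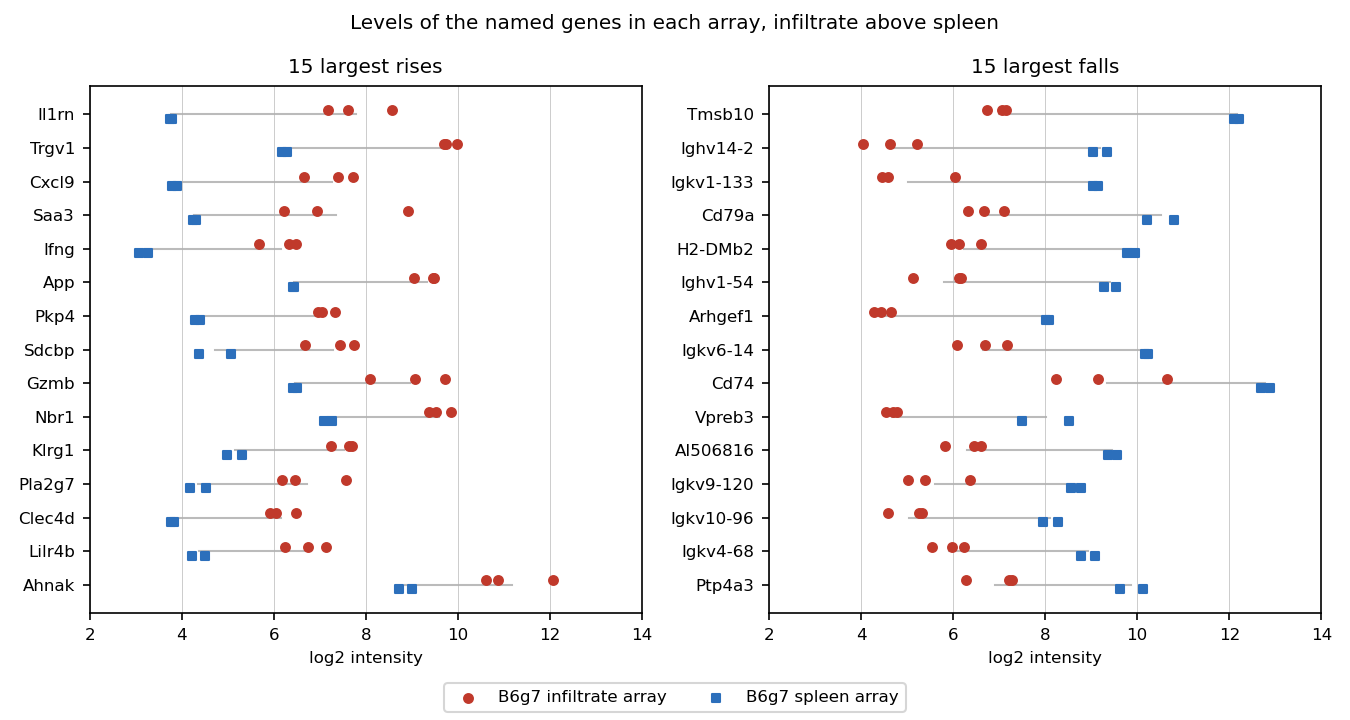
Log2 intensity (horizontal axis) of the 15 largest rises, left, and the 15 largest falls, right, with each of the 3 B6g7 infiltrate arrays as a circle and each of the 2 spleen arrays as a square, slightly below it. Circles and squares do not overlap in any gene, and Saa3, with 8.91, 6.94 and 6.22, spread most among the infiltrates of the left panel.

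B cell genes fell together. Of 19 B cell markers, 16 were lower in infiltrate, none higher, and the list median was -1.59. Cd79a, the signalling chain of the B cell receptor, had 7.11, 6.67 and 6.32 in the infiltrates, against 10.22 and 10.81 in the spleens. Cd79a thus differed far beyond the spread of either group (difference -3.81, SE 0.27, adjusted p = 7.68e-08). Its partner Cd79b fell less, at 10.31, 9.73 and 9.19 in infiltrate, against 11.12 and 11.07 in spleen (difference -1.35, adjusted p = 0.0122, and 0.119 without spleen array 1). Pax5 (-1.60) and Ebf1 (-2.19, at the absent level in infiltrate, so at least 3.62-fold lower), transcription factors of the B lineage, fell as well. Another Pax5 probe set differed by -0.33 (adjusted p = 0.369). Infiltrate array 1 was the highest and array 3 the lowest of the infiltrates in Cd72, a B cell coreceptor (7.28, 6.21 and 5.18 in infiltrate, against 9.18 and 8.78 in spleen). The sequences upstream of Vpreb3, a chaperone of the precursor B cell receptor, and of Blnk, the adaptor of the B cell receptor, are shown because both genes fell and both hold the octamer ATTTGCAT, known as a target of Oct factors in immunoglobulin promoters, in capitals. Vpreb3 is at chr10:75948050-75948299 on the plus strand, with the octamer starting 45 bases before the start, and Blnk is at chr19:40994222-40994471 on the minus strand, with the octamer 130 bases before it (RefSeq, GRCm38.p6, the 250 bases before the start, written 5' to 3').
Vpreb3: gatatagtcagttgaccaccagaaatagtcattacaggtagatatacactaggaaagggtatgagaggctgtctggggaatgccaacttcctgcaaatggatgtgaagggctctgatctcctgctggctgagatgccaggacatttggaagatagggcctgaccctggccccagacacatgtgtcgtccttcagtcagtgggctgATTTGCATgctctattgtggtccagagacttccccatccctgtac
Blnk: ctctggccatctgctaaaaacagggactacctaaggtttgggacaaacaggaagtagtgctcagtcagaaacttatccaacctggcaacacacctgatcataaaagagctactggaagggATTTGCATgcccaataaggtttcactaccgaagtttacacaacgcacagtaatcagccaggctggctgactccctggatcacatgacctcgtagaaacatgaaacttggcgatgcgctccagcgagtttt
Of the 14 B cell genes with a promoter entry, 2 held the octamer on either strand, and of all 32851 windows 1.6% did. Here too a gene counted by any of its windows, and the share is over single windows. Vpreb3 had 4.78, 4.70 and 4.55 in infiltrate, against 8.53 and 7.50 in spleen (adjusted p = 6.5e-08), though another of its probe sets differed by -0.43. Blnk had 7.51, 7.23 and 6.51 in infiltrate, against 9.26 and 8.91 in spleen (adjusted p = 0.000511).

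Immunoglobulin segments fell in 17 of 26 cases, with a median of -2.10. These probe sets belong to families of near-identical segments and may share signal. Ighv14-2, a heavy chain variable segment, had 5.21, 4.63 and 4.03 in infiltrate, against 9.04 and 9.35 in spleen, so that infiltrate array 3 lay below the absent level (at least 22.0-fold lower, adjusted p = 3.5e-09). Igkv10-96, a kappa segment, had 5.26, 5.32 and 4.58 in infiltrate, against 7.94 and 8.29 in spleen (difference -3.06, adjusted p = 5.03e-07), and another of its probe sets differed by -3.17. Igkv6-14, also of the kappa chain, had 6.70, 7.18 and 6.07 in infiltrate, against 10.17 and 10.23 in spleen (difference -3.55), but another of its probe sets, near the absent level in both tissues, differed by -0.06. Ighm, the IgM heavy chain, fell by 1.36 (adjusted p = 0.0448, and 0.234 without spleen array 2), with 11.64, 10.88 and 10.31 in infiltrate, against 12.29 and 12.31 in spleen.

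Of 11 genes of MHC class II presentation, 4 fell and none rose, with a median of -0.92. Cd74, the invariant chain, had 10.65, 9.14 and 8.24 in infiltrate, against 12.68 and 12.88 in spleen (difference -3.44, SE 0.56, adjusted p = 0.000758). H2-DMb2 had 6.62, 6.14 and 5.96 in infiltrate, against 9.78 and 9.95 in spleen (difference -3.63, SE 0.19, adjusted p = 1.17e-09), and H2-DMb1 and H2-Ab1 fell by 2.37 and 1.61 (for H2-Ab1 adjusted p = 0.0871 without spleen array 2). H2-Aa, the class II alpha chain, overlapped between tissues, with 12.19, 11.67 and 11.06 in infiltrate, against 12.19 and 12.29 in spleen (adjusted p = 0.381). In Cd74 and H2-Aa, array 1 was the highest infiltrate array and array 3 the lowest.

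Of 8 naive lymphocyte genes, 4 fell: Cd55, Ccr7, which guides cells into lymphoid organs, Klf2, which keeps T cells recirculating, and Lef1. Ccr7 had 5.83, 4.58 and 4.35 in infiltrate, against 6.94 and 6.65 in spleen (difference -1.88, adjusted p = 0.00116). For Cd55, Ccr7 and Klf2, the spleen arrays of both backgrounds lay above every array amplified in 2 rounds. Against B6g7 NK and lymph node T cells, which had 2 rounds, these genes differed in infiltrate by 0.01, 0.11 and -0.25. The limma adjusted p was 0.985, 0.895 and 0.448. Lef1 differed there by -0.28 (adjusted p = 0.463). Of 29 immediate early and stress genes, Klf6 rose and Dusp2, Junb, Zfp36 and Myc fell. Without spleen array 1 none of those 4 falls passed (adjusted p = 0.0646 for Junb and 0.335 for Myc), nor did the falls of Klf2 and Lef1 (0.0536 and 0.256).

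Of 15 T cell markers none passed in limma, 0 had an unadjusted p under 0.05, and the list median was -0.15. Cd3e had 6.67, 7.53 and 7.54 in infiltrate, against 7.51 and 7.51 in spleen (adjusted p = 0.779), and Cd4 had 6.51, 6.78 and 6.73 in infiltrate, against 7.09 and 7.29 in spleen (adjusted p = 0.267). Of 16 acinar, 14 islet, 13 erythroid and 20 stromal and endothelial transcripts none passed in limma, and the counts at an unadjusted p under 0.05 were 1, 1, 2 and 0. The insulin gene Ins2 had 7.47, 7.42 and 7.60 in infiltrate, against 7.93 and 7.51 in spleen (adjusted p = 0.85), and another of its probe sets differed by 0.68 (adjusted p = 0.211).

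**Figure D3:**
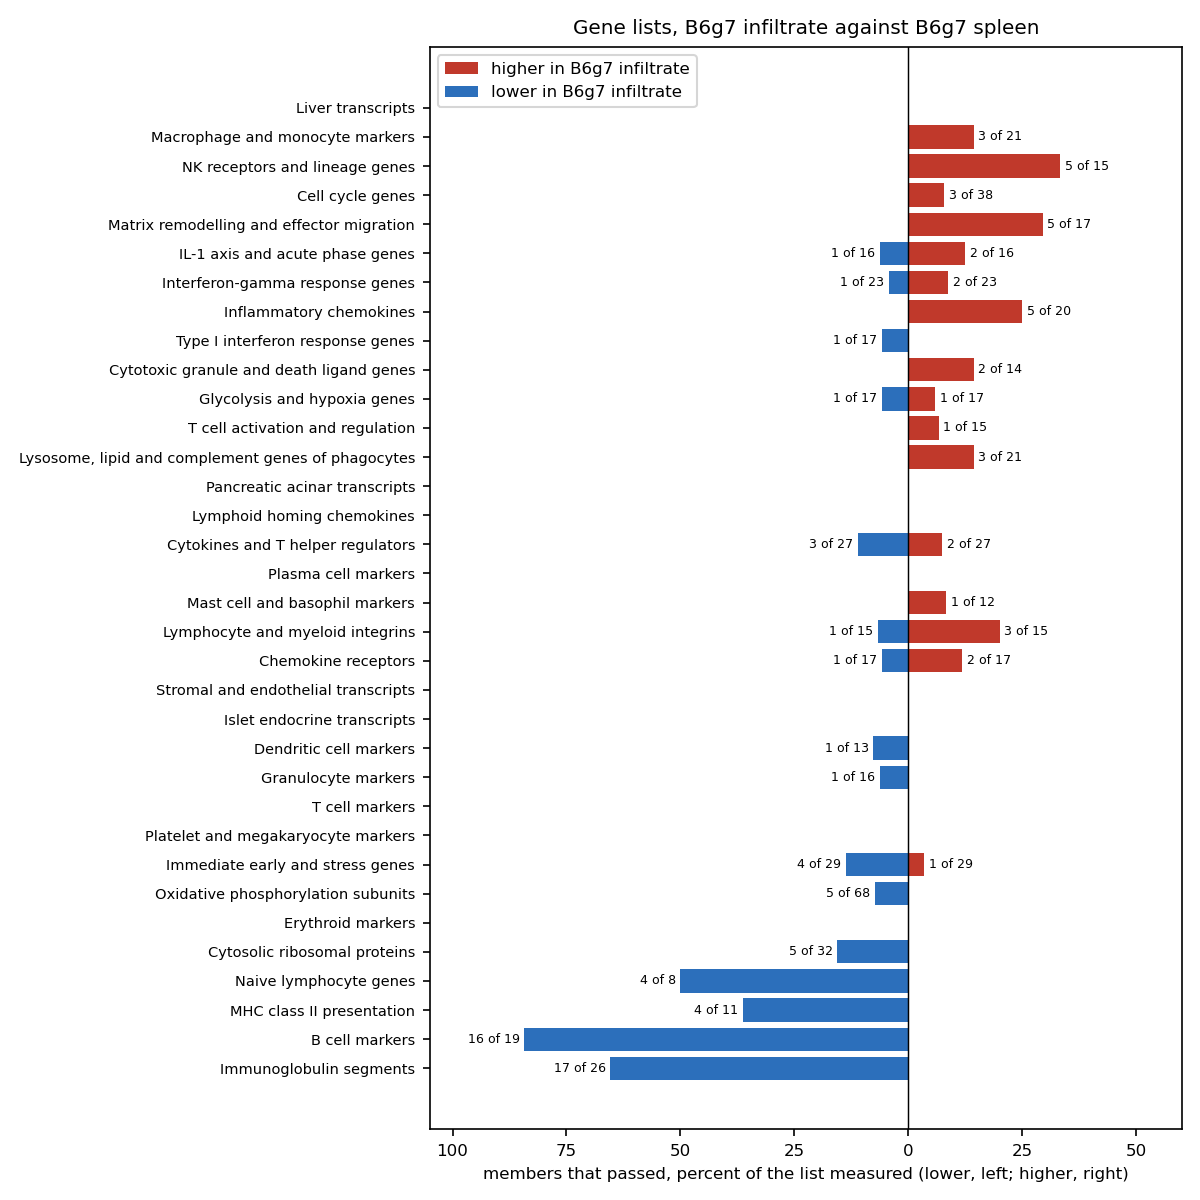
Share of each gene list that passed in B6g7 infiltrate against B6g7 spleen, lower to the left in blue and higher to the right in red, with the counts beside the bars and lists ordered by median difference. B cell markers (16 of 19) and immunoglobulin segments (17 of 26) reach farthest to the left, and NK receptors (5 of 15) farthest to the right.

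The single largest fall, Tmsb10, an actin-binding thymosin, had 7.06, 6.75 and 7.16 in infiltrate, against 12.21 and 12.11 in spleen (difference -5.17, SE 0.30, adjusted p = 4.48e-09). The same gene lay between 6.75 and 8.10 in all 20 arrays amplified in 2 rounds and between 12.11 and 12.74 in the 4 spleen arrays, which alone had 1 round. Arhgef1, a signalling protein of leukocytes, had 4.66, 4.42 and 4.27 in infiltrate, against 8.09 and 8.01 in spleen, and 3.96 to 5.08 over all arrays with 2 rounds. Of the 337 lower genes, 236 (70.0%, against 4.23% of all genes) had all 4 spleen arrays above all 20 arrays amplified in 2 rounds, and so did all of the 15 largest falls. Of the 284 higher genes, 93 (32.7%, against 2.4% of all genes) had all 4 spleen arrays below those 20, Pkp4 and Nbr1 among them. Both gene sets were selected on B6g7 arrays that enter these counts, so shares above those of all genes are partly built in. Most arrays with 2 rounds hold sorted T or NK cells, and 17 of 19 B cell markers had all 4 spleen arrays above them. The part of amplification in the differences between tissues was not tested. Among all genes 4.08% fell, against 5 of 32 cytosolic ribosomal proteins and 5 of 68 oxidative phosphorylation subunits. Rps7, for example, had 10.80, 10.31 and 9.51 in infiltrate, against 12.75 and 12.72 in spleen, and Atp5l had 7.02, 7.42 and 7.23 in infiltrate, against 9.61 and 9.33 in spleen, while another Atp5l probe set, below the absent level in both tissues, differed by 0.03.

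Against the B6g7 populations with the same number of amplification rounds (2 arrays of splenic NK cells and 2 of lymph node T cells, weighted equally), 253 genes (3.07%) were higher and 54 (0.654%) lower in B6g7 infiltrate. This comparison shares the infiltrate arrays with the one above, and its populations differ in cell type, so the values are set side by side. Il1rn was higher by 3.91 (adjusted p = 7.23e-07), Cxcl9 by 3.29 (adjusted p = 1.36e-07), Ifng by 2.35 (adjusted p = 0.00129), Trgv1 by 3.71 (adjusted p = 1.36e-07) and App by 2.42 (adjusted p = 3.36e-07). Pkp4 differed by 0.11 (adjusted p = 0.927) and Tmsb10 by -0.31 (adjusted p = 0.587). B cell and class II genes were higher in infiltrate here: 13 of 19 B cell markers and 7 of 11 class II genes passed, for example Cd79b (2.81, adjusted p = 4.18e-06) and H2-Aa (4.68, adjusted p = 6.28e-08). Cd79a differed by 0.42 (adjusted p = 0.368).

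**Figure D4:**
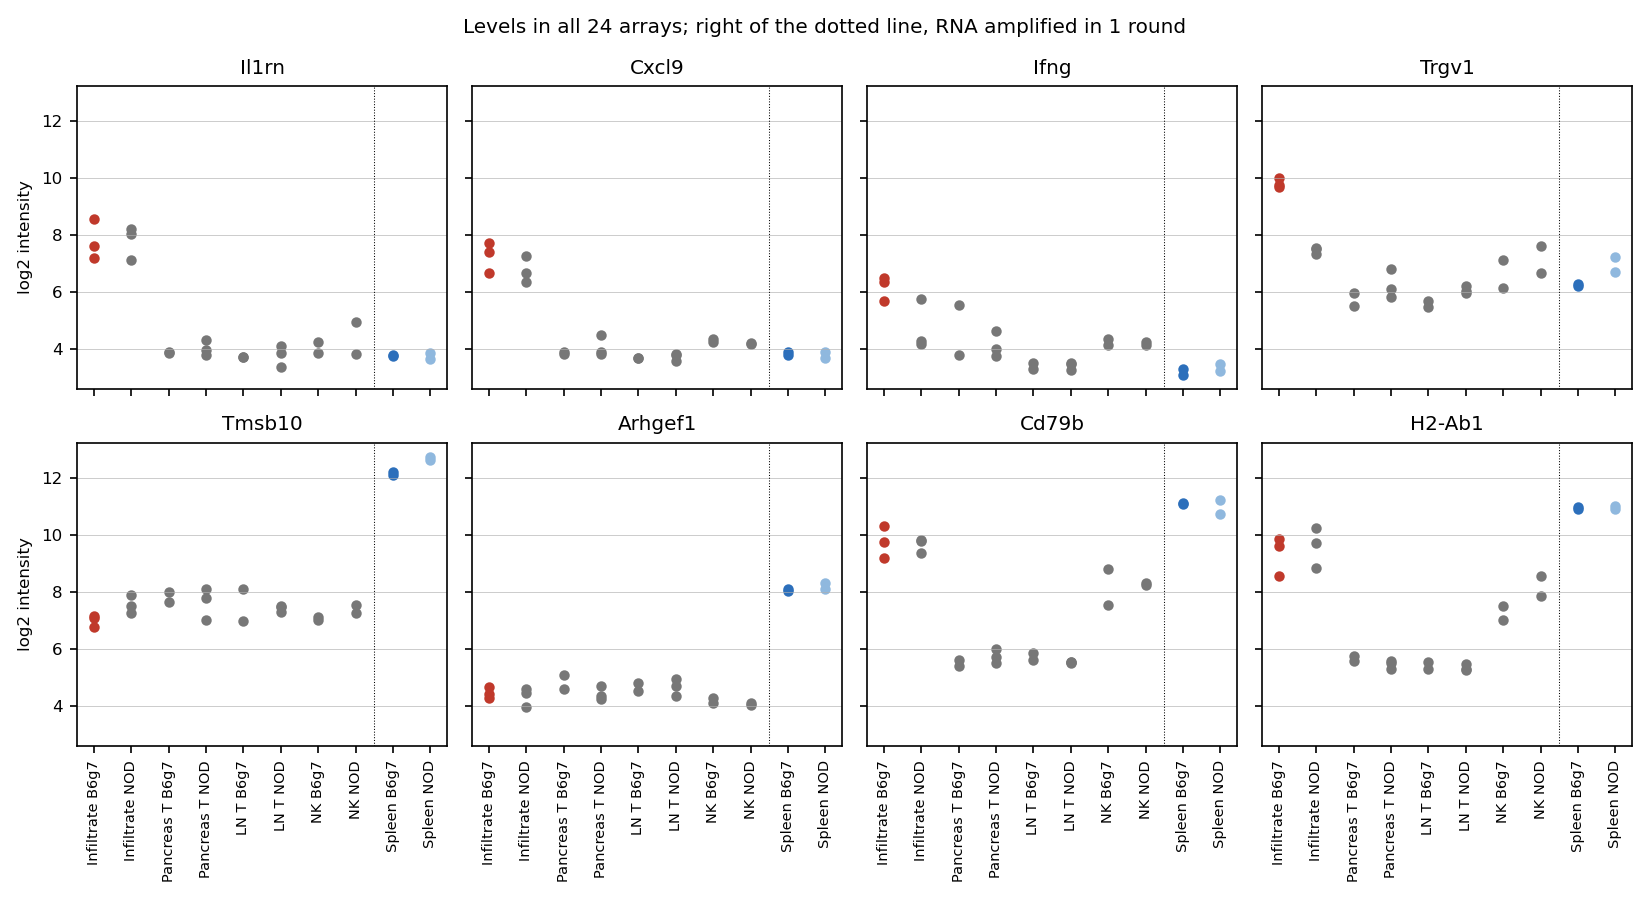
Log2 intensity of 8 genes in all 24 arrays by population, with B6g7 infiltrate in red at the left, spleen in blue at the right and, right of the dotted line, RNA amplified in 1 round. Il1rn and Cxcl9 are high in both infiltrates, Trgv1 is highest in the B6g7 infiltrates, and Tmsb10 and Arhgef1 are high in the 4 spleen arrays.

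In NOD mice, infiltrate against spleen gave 329 higher genes (3.99%) and 386 lower genes (4.68%), from arrays separate from those of B6g7. There too the infiltrates had 2 rounds of amplification and the spleens 1, and both contrasts took their spread from the same fit. Genes shared between them therefore do not tell tissue from amplification. Of the B6g7 rises, 178 were also higher in NOD, which is 62.7% of the B6g7 list and 54.1% of the NOD list. Of the falls, 264 were shared, 78.3% of the B6g7 list and 68.4% of the NOD list, and no gene passed in opposite directions. The difference between the 2 backgrounds was tested for each probe set, and 5 of 12422 passed (149 at an unadjusted p under 0.05). Among genes only Trgv1 and Ifi209 did so at their brightest probe set. Trgv1 rose by 3.57 in B6g7 and differed by 0.49 in NOD (difference between backgrounds 3.08, SE 0.44, adjusted p = 0.0124). Ifi209, an interferon-inducible gene, fell by 2.09 in B6g7 and differed by -0.04 in NOD (difference -2.05, SE 0.29, adjusted p = 0.0124). Without B6g7 spleen array 2 or without NOD spleen array 1, 0 of the 5 probe sets passed in limma, and without the arrays with liver transcripts none of the 5 passed, while 2 others did. Ifi209 had a mean of 4.52 in infiltrate and 6.61 in spleen of B6g7, against 4.63 and 4.68 in NOD. Itgae (1.75 in B6g7, 0.06 in NOD) and Cd72 (-2.76 in B6g7, 0.13 in NOD) did not pass that test (adjusted p = 0.405 and 0.107). In NOD, Cd72 had a mean of 3.5 in infiltrate and 3.4 in spleen, both below the absent level, against 6.2 and 9.0 in B6g7. Whether Cd72 fell in NOD infiltrate therefore cannot be read from this probe set.

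**Figure D5:**
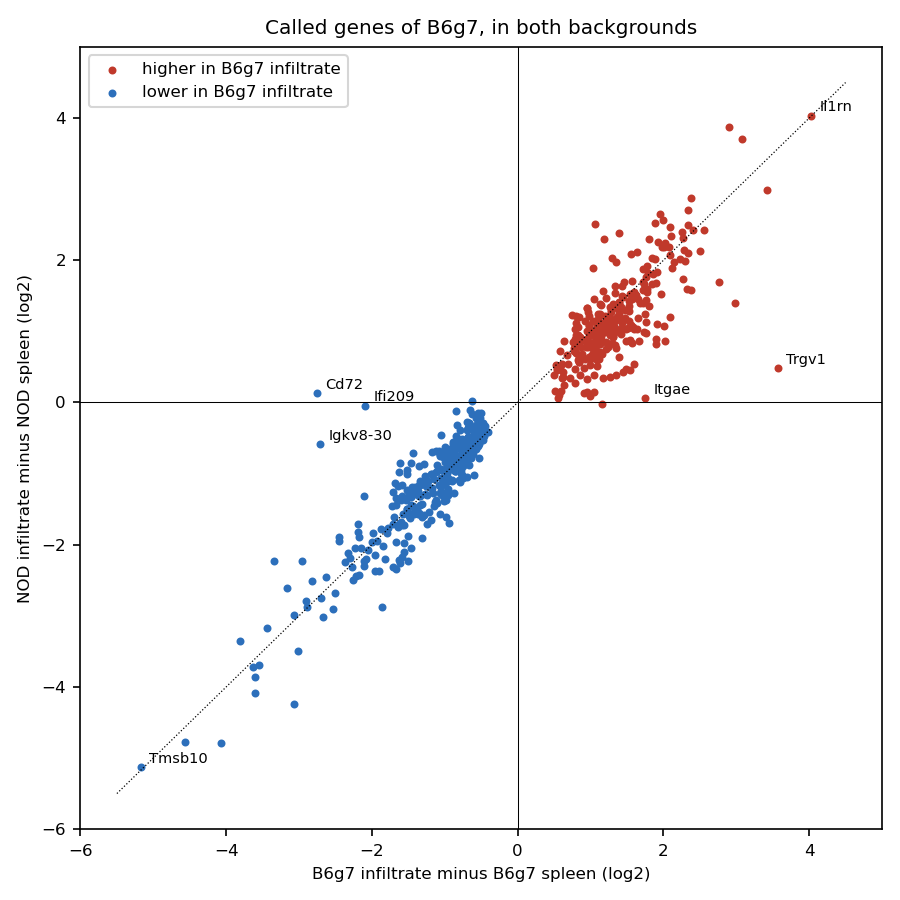
Infiltrate minus spleen (log2) in B6g7 (horizontal axis) and in NOD (vertical axis) for the genes that passed in B6g7, with the line of equal differences dotted. Il1rn (4.03 and 4.04) and Tmsb10 (-5.17 and -5.12) lie near the line, and Trgv1 (3.57 and 0.49) far from it.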

How the data were processed

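The deposited values are linear intensities, 1 per probe set and array, in a single table of the series. Per the submitters' processing notes RMA was used for 11 of the 24 arrays, among them the 3 B6g7 infiltrates and neither B6g7 spleen array; for the other arrays the method was not given in the sources used here. Log2 was taken without a pseudocount. Of 12488 probe sets 66 controls were left out. Gene names came from the array platform's annotation table, updated through RefSeq (GRCm38.p6): 10833 had 1 gene, 396 several and 1193 none. The brightest probe set over all arrays stood for its gene. Group means of 10 groups were fitted in limma 3.58.1 (R 4.3.3) with 14 residual degrees of freedom, two-sided, adjusted by Benjamini-Hochberg over all probe sets, and the fit was tested on simulated data. Named genes were the 15 largest rises and falls among passing genes without overlap, up to 4 members per list by adjusted p, 5 genes per direction between backgrounds and a panel of 26, of which 23 were measured. Other genes were named after their values were seen. The comparison, lists and rules were chosen with earlier results of these data known. The number of arrays limits the precision. Alternatives covered normalization, filtering, the prior, array weights, blocks, a liver covariate and leaving out arrays.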

Additional observations from a re-analysis of the deposited data

Results flagged for a closer look

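Infiltrate minus spleen differed between B6g7 and NOD, by the interaction term of the limma fit, at 5 of 12422 probe sets. Trgv1, a gamma-chain variable gene of gamma-delta T cell receptors, differed by 3.08 (adjusted p = 0.0124), with means of 9.80 in infiltrate and 6.23 in spleen of B6g7, against 7.44 and 6.95 in NOD. Ifi209, an interferon-inducible gene, differed by -2.05 (adjusted p = 0.0124), with the B6g7 spleen at 6.61 and the other 3 groups between 4.52 and 4.68. A probe set of the kappa segment Igkv14-111, not the gene's brightest, differed by -1.44 (adjusted p = 0.0185), falling in both backgrounds, by 2.49 in B6g7 and by 1.05 in NOD. A probe set of Igkv15-103, also not the brightest, differed by 2.0 (adjusted p = 0.0224), with a fall of 0.75 in B6g7 and 2.75 in NOD. A probe set without a gene name differed by 1.26 (adjusted p = 0.0224), with B6g7 at -0.28 and NOD at -1.55. The kappa probe sets belong to a family of near-identical segments. The number of calls depended on single arrays: without NOD spleen array 1 or B6g7 spleen array 2, 0 of the 5 passed in limma, and without the infiltrate arrays with liver transcripts none of the 5 passed, while 2 others did.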

How the results depend on the processing

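Of the 100 named genes that passed in B6g7, none changed sign under any alternative run. Where arrays were only left out or weighted this was fixed in advance, because the arrays of the tissues did not overlap in these genes. Sign changes were seen only for genes that did not pass: Ncr1 (-0.21 with array weights, -0.11 with the replicate block, -0.109 to 0.351 without 1 array), Cd3e (-0.407 to 0.03 without 1 array), Tnf (-0.006 to 0.236), Cd8a (-0.348 to 0.047) and, without the infiltrate arrays with liver transcripts, Trgv4 (-0.094), Hdc (-0.18), Gp9 (0.008), Alb (-0.011), Serpina1b (-0.098), Cd3e (0.037), Cd8a (0.19) and Prf1 (-0.001). Counts of probe sets follow as all, higher, lower. Leaving out 1 array gave 324 to 829, 94 to 273 and 225 to 556 for B6g7, 351 to 879, 103 to 342 and 248 to 537 for NOD, 0 to 5, 0 to 2 and 0 to 4 for the difference between backgrounds, and 194 to 543, 167 to 401 and 27 to 142 against the populations with 2 rounds, where a lone array of a group took the spread of the remaining groups. Array weights gave 4283, 2138 and 2145 for B6g7, 3027, 1621 and 1406 for NOD, 18, 9 and 9 between backgrounds, and 2832, 1519 and 1313 against 2 rounds. Among the B6g7 infiltrates these weights leaned on array 2 (6.08, against 0.59 and 0.60 for arrays 1 and 3). Runs of serial codes as a random block gave 370, 100 and 270, then 372, 83 and 289, then 13, 6 and 7, then 272, 220 and 52. With 1 probe set per gene, where fewer features are tested, the counts were 613 and 333 lower for B6g7, 663, 293 and 370 for NOD, 2, 1 and 1 between backgrounds, and 56 lower against 2 rounds. The liver covariate gave 1448 and 676 higher for B6g7, and 714 and 214 lower against 2 rounds. Without the arrays with liver transcripts, 565 and 166 higher passed for B6g7, 2, 1 and 1 between backgrounds (neither among the 5 reported), and 75, 73 and 2 against 2 rounds. Fitting only the compared groups gave 712 higher for B6g7, 2 and 0 lower between backgrounds, and 228, 182 and 46 against 2 rounds. Without the 40% dimmest probe sets, 311 were higher in NOD, and 1, 1 and 0 passed between backgrounds. The replicate numbers share only a number (correlation of deviations 0.3 and 0.13 for 2 pairs), and the replicate block gave 572, 202 and 370 for B6g7 and 732 and 281 higher for NOD. Quantile normalization, centring and the trended prior kept each count within 1.5 times. Apart from fewer features or arrays tested, the cause of these changes was not tested.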

Other observations

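Of 13 dendritic cell markers Ccr7 passed, and of 17 type I interferon response genes Ifi209, both lower in infiltrate. A probe set of the dendritic cell marker Cd83 that is not its brightest differed by -1.44 (adjusted p = 0.000115). Of 15 genes of T cell activation and regulation Itgae passed, higher in infiltrate. No member of the lists of platelet, plasma cell and lymphoid homing chemokine genes (7, 6 and 3 genes) passed in limma, and 0, 2 and 1 had an unadjusted p under 0.05. Of 12 mast cell and basophil markers, Cpa3, a mast cell protease, was higher in infiltrate by 1.03 (adjusted p = 0.031), and of 16 granulocyte markers Elane, neutrophil elastase, was lower (difference -0.51, adjusted p = 0.0282). Cpa3 had an adjusted p of 0.307 without spleen array 1, and Elane one of 0.274 without spleen array 2. Of 17 glycolysis and hypoxia genes, Hk1, hexokinase 1, had 8.42, 8.32 and 8.18 in infiltrate, against 10.49 and 10.34 in spleen (adjusted p = 0.000805), and Hif1a, the hypoxia-inducible factor, had 10.15, 10.24 and 11.22 in infiltrate, against 8.81 and 9.06 in spleen (adjusted p = 0.0392, and 0.262 without spleen array 1).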
